A study of Rattus norvegicus with 28 samples.

Results

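Follistatin (Fst, ENSRNOG00000011631), the inhibin beta E chain (Inhbe, ENSRNOG00000007601) and transforming growth factor beta 1 (Tgfb1, ENSRNOG00000020652) were followed in every muscle of a rat electroporation study of the vitamin D receptor (VDR). These 3 genes were taken by their Ensembl identifiers from the 32883 genes in the count files, and all 3 were among the 15112 genes tested in the 28 samples. RNA from the tibialis anterior of 14 male Wistar rats was sequenced, 7 rats in each of 2 arms, with the right leg of each rat treated and the left leg as its control. In the VDR-OE arm (rats 416 to 422) the right leg received pCAGGS-mVDR, a mouse Vdr expression plasmid, and the left leg received empty pCAGGS. In the VDR-KD arm (rats 423 to 429) the right leg received VDR shRNA and the left leg received scramble shRNA. All 28 muscles were injected and pulsed with current, so no uninjected muscle stands as a baseline. The study's methods speak of injected lenti-shRNA particles as well as of plasmids, so the form of the shRNA is not settled here. By the study's methods the VDR-OE rats were 8 weeks old at arrival, were fasted overnight and were killed 10 days after electrotransfer. The age and day of the VDR-KD rats are not given in the sources used here. Libraries held 36684220 to 46312167 counted reads each.

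Activins, myostatin and the TGF-betas are secreted dimers of one protein family. They bind paired type I and type II serine/threonine kinase receptors and signal through Smad proteins, and in skeletal muscle they are known as brakes on fibre size and as drivers of connective tissue deposition. Follistatin is a secreted protein that binds activins and myostatin and keeps them from their receptors. Inhbe encodes the subunit of activin E, best known as a liver product, and is also known as a target of the amino acid and endoplasmic reticulum stress response that runs through the transcription factor ATF4. Tgfb1 encodes the latent cytokine TGF-beta 1, made by macrophages, platelets, fibroblasts and other cells and released from its latent complex by proteases and integrins.

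The stretch of DNA before the start of a gene holds many of the sites through which such responses act, so the 250 bases before the RefSeq start of Inhbe and Tgfb1 (build GRCr8) are shown together with those of Fgf21, the gene whose level followed Inhbe most closely. The Inhbe stretch lies at chr7:65064520-65064769 on the minus strand, the Fgf21 stretch at chr1:105221377-105221626 on the minus strand and the Tgfb1 stretch at chr1:90324062-90324311 on the plus strand. Each is written 5′ to 3′ along its gene, and capitals mark matches on either strand to TGATGNAA, the C/EBP-ATF composite element to which ATF4 is known to bind.
Inhbe: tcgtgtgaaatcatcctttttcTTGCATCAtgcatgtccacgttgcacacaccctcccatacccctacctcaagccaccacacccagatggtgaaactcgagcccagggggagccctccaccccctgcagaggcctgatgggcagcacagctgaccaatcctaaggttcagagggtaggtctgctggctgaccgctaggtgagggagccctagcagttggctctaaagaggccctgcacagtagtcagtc
Fgf21: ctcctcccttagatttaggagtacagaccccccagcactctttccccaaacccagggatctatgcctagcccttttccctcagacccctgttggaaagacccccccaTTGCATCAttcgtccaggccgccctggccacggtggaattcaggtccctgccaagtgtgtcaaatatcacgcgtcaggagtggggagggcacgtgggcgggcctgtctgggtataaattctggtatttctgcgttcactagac
Tgfb1: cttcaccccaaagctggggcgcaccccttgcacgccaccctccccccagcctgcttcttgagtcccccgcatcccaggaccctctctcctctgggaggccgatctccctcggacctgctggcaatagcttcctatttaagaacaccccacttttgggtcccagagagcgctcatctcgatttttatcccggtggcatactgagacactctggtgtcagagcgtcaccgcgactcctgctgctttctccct
Inhbe held 1 match, from 228 to 221 bases before its start, and Fgf21 held 1 match of the same 8 letters, from 143 to 136 bases before its start. Tgfb1 held 0 matches. The element was searched for after the Inhbe sequence had been seen, and 3.40% of the 33469 rat promoter stretches of this length hold it. Of the 20 named genes on a list of amino acid and ATF4 response genes, 16 had 1 stretch each and 4 of those held a match, Inhbe, Fgf21, Trib3 and Pck2. Neither Inhbe nor Tgfb1 held a match to the AP-1 site TGANTCA (6.34% of all stretches do), to the Smad box GTCTAGAC (0.173%) or to a vitamin D response element of the DR3 kind (0.0926%). A match describes letters only, and its absence says nothing of a factor.

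The targeted gene checks the labels, and it did so only in part. Vdr stood between 1.91 and 6.73 normalised CPM, the reads of a gene scaled to library size, in the 7 VDR-OE control legs. In the VDR-OE legs it was between 201 and 5938 CPM in 6 rats but 5.45 CPM in rat 419, against 5.75 CPM in that rat's control leg. The Vdr counts of those legs hold plasmid transcripts as well as the rat's own. In the VDR-KD arm Vdr ran from 1.39 to 8.12 CPM in the control legs and from 1.94 to 6.54 CPM in the treated legs, and it was lower in the treated leg of 4 of 7 rats and higher in rats 423, 426 and 427 (log2 fold change -0.26 ± 0.85 SE, edgeR adjusted p = 0.897). A lowered Vdr mRNA was thus not seen in the legs labelled VDR-KD, and that label is used below only as a name. A pair of libraries, the right leg of rat 423 and the left leg of rat 424, were each the lowest of their group in Inhbe. They were also the lowest of their groups in the 5 genes whose level followed Inhbe most closely. Those genes were picked by their likeness to Inhbe over all muscles, these libraries included. Their low levels there follow in large part from that choice and are no separate evidence about these libraries. Because Inhbe was lowest in these libraries, its results in the VDR-KD arm are also given without rat 423 and without rat 424. No gene symbol was at hand for the muscle fibre markers, so the labelled tissue was not checked against them.

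Inhbe was nearly silent in the muscles of the VDR-OE group. In the 7 VDR-OE control legs it had 31 to 224 reads (lowest 0.938, median 2.37 and highest 5.08 CPM), and in the 7 VDR-OE legs 1 to 8 reads (lowest 0.0212, median 0.0883 and highest 0.177 CPM). The ranges do not overlap, and Inhbe was lower in the treated leg of 7 of 7 rats. The treated legs summed to 26 reads against 746 in the control legs, so single treated legs lie near or under the limit of 3 reads (0.0637 to 0.0883 CPM) that a count of 0 allows. Rat by rat, from 416 to 422, the reads in control and treated leg were 219 and 3, 31 and 1, 87 and 4, 41 and 2, 224 and 7, 111 and 1, and 33 and 8. Rat 419, whose treated leg showed no rise of Vdr, had the same low Inhbe (0.0431 CPM) as the other treated legs. The fitted log2 fold change was -4.78 ± 0.87 (SE), 27.5-fold lower, with an adjusted p of 0.0236 by the edgeR quasi-likelihood test with the rat as a block. Of all 15112 genes tested 1.52% (229) passed in this comparison, 79 up and 150 down, and 2 of the 3 genes followed here are among them. All 3 have a symbol in the supplementary table of the study that was chosen on these same legs. Of the genes named there and tested, 11.9% passed. Nothing is therefore read from the share of the 3 that passed. The count of 229 fell to 0 without rat 421 and rose to 697 without rat 425. By size of the fall Inhbe ranked 2 of 15112. The call was lost (adjusted p = 0.0657, 0.0511, 0.0856 and 0.105) when rat 418, 419, 420 or 421 was left out, at log2 fold changes of -4.82, -4.77, -4.72 and -4.51.

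Fst was higher in the VDR-OE legs. Control legs ran from 2.06 over a median of 2.65 to 3.23 CPM (68 to 161 reads), and VDR-OE legs from 3.22 over a median of 4.52 to 6.23 CPM (119 to 293 reads). The ranges overlap between the highest control leg and the lowest VDR-OE leg, and within rats the treated leg was higher in 7 of 7, by 0.46 to 1.21 on the log2 scale. The mean level was 2.64 ± 0.377 CPM (SD, n = 7) in control legs and 4.64 ± 1.16 CPM in VDR-OE legs, a fitted log2 fold change of 0.79 ± 0.18 (SE), 1.73-fold higher (edgeR adjusted p = 0.0414). This call lies close to the threshold of 0.05. It was lost in 10 of the 14 fits that left out 1 rat, namely any rat of 416 to 422 or rat 427, 428 or 429, where the log2 fold change was 0.71 to 0.84 and the highest adjusted p was 0.167. It was also lost with no filter on low counts (adjusted p = 0.0556).

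Tgfb1 did not pass the test in the VDR-OE legs. Control legs ran from 16.8 over a median of 24.8 to 38.5 CPM (554 to 1919 reads), and VDR-OE legs from 30.5 over a median of 37.7 to 48.0 CPM (1075 to 2233 reads). The ranges overlap. The treated leg was higher in 6 of 7 rats and lower in rat 416, whose control leg had the highest level of its group. The log2 fold change was 0.61 ± 0.26 (SE), with an adjusted p of 0.202 by edgeR over all genes. The mean level was 26.1 ± 8.57 CPM (SD, n = 7) in control legs and 38.5 ± 6.56 CPM in VDR-OE legs. With 554 or more reads in each of these legs, counting error was small beside the spread between rats.

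**Figure D1:**
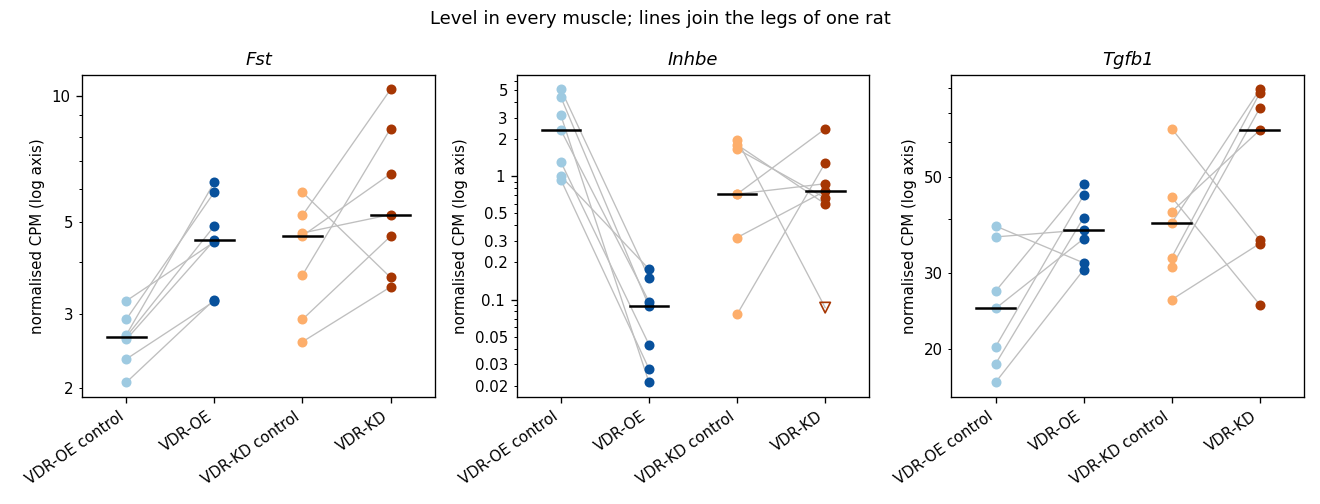
Normalised CPM (log axis) of Fst, Inhbe and Tgfb1 in each of the 28 muscles by group, with grey lines joining the legs of one rat, black bars for group medians and an open triangle for 0 reads drawn at the limit of 3 reads. The 7 VDR-OE legs of Inhbe lie at 0.0212 to 0.177 CPM, under all 7 of their control legs, while the VDR-KD groups overlap for each gene.

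None of the 3 genes passed in the legs labelled VDR-KD against their scramble legs, where 0% of the 15112 genes passed by the edgeR quasi-likelihood test, 1043 had p under 0.05, and DESeq2 called 25. Fst ran from 2.58 over a median of 4.63 to 5.88 CPM in control legs and from 3.49 over a median of 5.20 to 10.4 CPM in treated legs. It was higher in the treated leg of 6 of 7 rats, lower in rat 425, and differed by 0.47 ± 0.18 (SE) on the log2 scale (edgeR adjusted p = 0.632). Tgfb1 ran from 26.0 over 39.1 to 64.6 CPM in control legs and from 25.3 over 64.1 to 79.5 CPM in treated legs. It was higher in the treated leg of 5 of 7 rats, and lower in rats 423 and 425, with a log2 fold change of 0.43 ± 0.27 (SE) and an edgeR adjusted p of 0.632. Among the treated legs, those of rats 424, 426, 427 and 428 were the 4 highest for Tgfb1, at 72.0, 79.5, 78.0 and 64.1 CPM. The control leg of rat 425, at 64.6 CPM, was above the last of these. The libraries of these 4 treated legs had the highest normalisation factors of the 28, from 1.28 to 1.44. The part of that composition shift in the Tgfb1 values was not tested.

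Inhbe had no common direction in the VDR-KD arm. The reads in control and treated leg of rats 423 to 429 were 85 and 0, 3 and 68, 37 and 92, 65 and 39, 12 and 37, 79 and 29, and 24 and 33. The treated leg was higher in 4 rats and lower in 3. The medians were 0.719 CPM in control legs and 0.761 CPM in treated legs, and the log2 fold change was -0.046 ± 0.80 (SE), with an edgeR adjusted p of 0.982. A 0 in the right leg of rat 423 allows up to 0.0860 CPM, and the left leg of rat 424 stood at 0.0758 CPM, so each lay in the range of the VDR-OE legs. Without rat 423 the log2 fold change was 0.52 and without rat 424 it was -0.56, neither past the threshold.

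**Figure D2:**
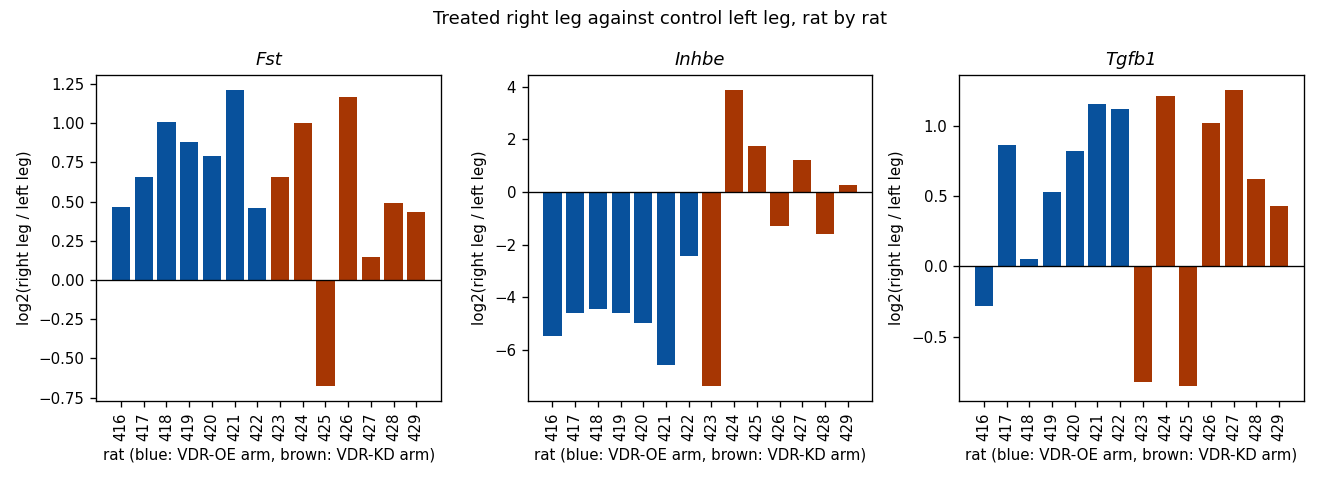
Log2 of the treated right leg over the control left leg for each rat (x axis, rat number), blue for the VDR-OE arm and brown for the VDR-KD arm, from CPM with a prior count of 0.5. Fst is above 0 in 13 of 14 rats and Inhbe is below 0 in 7 of 7 VDR-OE rats; the Inhbe bars of muscles with few reads depend on the prior count.

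Whether the treated leg moved differently in the 2 arms was tested directly. For Inhbe the difference between the arms in log2 fold change was -4.73 ± 1.17 (SE), with an edgeR adjusted p of 0.469. Over the within-rat log2 ratios, the mean was -4.72 ± 1.25 (SD, n = 7) in the VDR-OE arm and -0.45 ± 3.58 in the VDR-KD arm, and the exact two-sided permutation test over all splits of the 14 rats gave p = 0.0122. That SD of 3.58 includes rat 423, with 0 reads in the treated leg, and rat 424, with 3 reads in the control leg, and was 2.04 without rat 423 and 3.32 without rat 424. Without rat 423 the mean difference between the arms was -5.43 and without rat 424 -3.55 (exact permutation p = 0.000583 and 0.0274), and the fitted difference was -5.30 and -4.21 (edgeR adjusted p = 0.0603 and 0.508). The difference for Fst was 0.32 ± 0.25 (edgeR adjusted p = 0.904, exact permutation p = 0.231). That for Tgfb1 was 0.19 ± 0.37 (edgeR adjusted p = 0.993, exact permutation p = 0.624). In this comparison 0% of the genes passed by the quasi-likelihood test, 1099 had p under 0.05, and 18 passed the likelihood ratio test and 44 passed DESeq2, in both of which Inhbe passed (adjusted p = 0.0383 and 0.00242). That Fst passed in the VDR-OE arm alone is therefore no sign that the arms differed in Fst.

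The control legs of the 2 arms were also compared with each other. Fst was lower in the empty-vector legs than in the scramble legs by 0.68 ± 0.18 (SE) on the log2 scale, with an edgeR adjusted p of 0.0903. Tgfb1 was lower by 0.62 ± 0.22 on that scale (adjusted p = 0.136), and Inhbe was higher by 1.32 ± 0.56 (adjusted p = 0.179). None of the 3 passed, and 0.0277% (4) of 14458 genes did. For Fst the call turned under DESeq2 (adjusted p = 0.0151), under the edgeR likelihood ratio test (0.0364) and without rat 429 (0.0332). The same empty-vector legs are the control of the VDR-OE differences, so these values are not independent of those. Construct and cohort of rats cannot be told apart here.

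**Figure D3:**
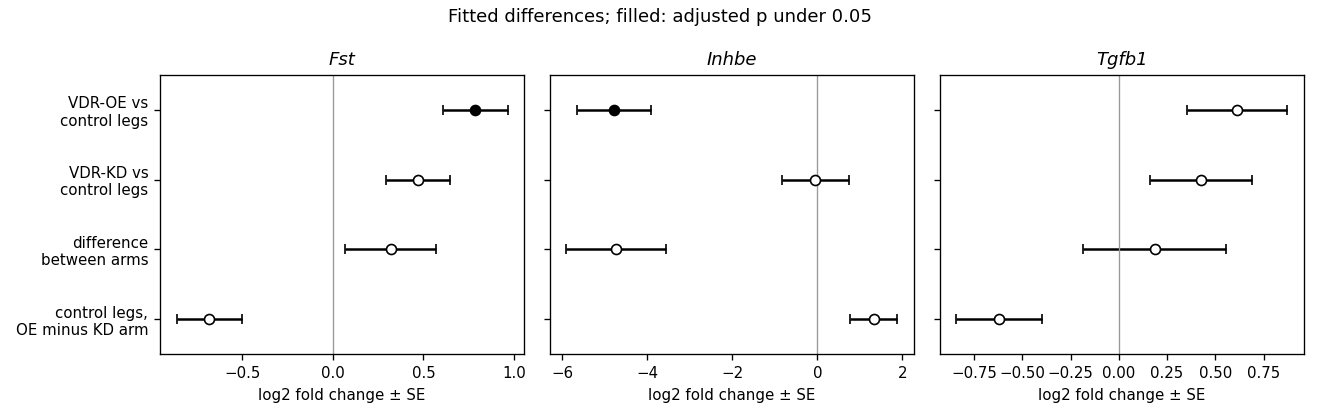
Fitted log2 fold change ± SE (x axis) of the 3 genes in the 4 comparisons (y axis), with filled points for an edgeR adjusted p under 0.05. Filled points are those of Fst (0.79) and Inhbe (-4.78) in the VDR-OE legs against their control legs.

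By mean log2 CPM the order of the groups, from low to high, was for Fst the VDR-OE control, VDR-KD control, VDR-OE and VDR-KD legs, with means of 1.39, 2.03, 2.18 and 2.49. For Inhbe the order was the VDR-OE, VDR-KD, VDR-KD control and VDR-OE control legs, at -3.62, -0.93, -0.49 and 1.11. For Tgfb1 it was the VDR-OE control, VDR-OE, VDR-KD control and VDR-KD legs, at 4.64, 5.25, 5.26 and 5.68. Neighbours in these orders were compared by exact two-sided permutation tests, 9 pairs in all, and none passed after adjustment over the 9. Between the legs of one arm the sign flips over 7 rats cannot give a p below 0.0156. Such a p alone would not pass this adjustment, so those pairs not passing is no sign of equal levels. The smallest p was that of Fst in the VDR-OE control against the VDR-KD control legs (exact permutation p = 0.00932, adjusted p = 0.0839). All 9 neighbouring pairs had overlapping ranges. The order of Inhbe kept 2 of its 4 ranks without rat 423 and also by median CPM without TMM, and 4 without rat 424. The order of Tgfb1 changed when rat 416, 417, 423, 425 or 428 was left out, and its VDR-OE and VDR-KD control legs differed by 0.016 in mean log2 CPM.

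Among the other ligands of the family with a symbol in the sources used here, Tgfb2 and Gdf15 could be followed, and neither passed. Tgfb2, a further TGF-beta isoform, was at 43.1 ± 8.97 CPM (SD, n = 7) in VDR-OE control legs and 30.5 ± 5.83 CPM in VDR-OE legs, a log2 fold change of -0.50 ± 0.16 (edgeR adjusted p = 0.105) that was negative in 6 of 7 rats. Gdf15, a stress-induced distant family member, differed by -1.38 ± 0.54 (edgeR adjusted p = 0.168), lower in 7 of 7 rats. In the VDR-KD arm the differences were -0.25 ± 0.16 and 0.59 ± 0.57. No values are given for Mstn, Inhba, Inhbb, Acvr2b, Tgfbr1 and Tgfb3, whose symbols are not paired with identifiers in the sources used here. Symbols were at hand for 1998 genes, those of a supplementary table chosen on the VDR-OE legs, and 1928 of the 1930 of them tested had p under 0.05 in that comparison. All 229 genes that passed there have a symbol, so 11.9% of the named genes passed against 1.52% of all. The counts, signs and medians of the lists in the VDR-OE legs are fixed in large part by this choice. They are a description, and nothing is read from setting them beside the VDR-KD legs or beside all genes.

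Of 32 extracellular antagonists and latency proteins 10 had a symbol, and 4 of them rose in VDR-OE legs and 0 fell, where 11.9% of all named genes passed. Their median log2 fold change was 0.78 (-0.0050 over all genes tested), and each of the 10 had p under 0.05 there. Beside Fst these were Fstl1, a secreted follistatin-like glycoprotein (0.71 ± 0.14, edgeR adjusted p = 0.0257), Bmper, an extracellular BMP binding protein (0.87 ± 0.17, adjusted p = 0.0298), and Dcn, the proteoglycan decorin that binds TGF-beta (0.64 ± 0.13, adjusted p = 0.0348), each higher in 7 of 7 rats. Wfikkn2, an inhibitor of myostatin and GDF11, differed in the other direction by -0.72 ± 0.22 without passing (adjusted p = 0.100). In the VDR-KD legs Fstl1 differed by -0.024 ± 0.14, and 0 of the 10 passed, at a median of 0.12. The 3 receptors with a symbol did not pass. Tgfbr2, the type II TGF-beta receptor, differed by 0.53 ± 0.13 in VDR-OE legs (edgeR adjusted p = 0.0612, higher in 7 of 7 rats) and by 0.27 ± 0.13 in legs labelled VDR-KD (adjusted p = 0.632), and Acvrl1 and Tgfbr3 differed by 0.32 and 0.51 in VDR-OE legs. None of the 6 named activating proteases passed, at a median of 0.50 in VDR-OE and 0.14 in VDR-KD legs.

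Among 11 named TGF-beta response genes 1 passed in the VDR-OE legs, a share near that of all named genes (11.9%). It was Tagln, an actin-binding protein of contractile cells (0.50 ± 0.12, edgeR adjusted p = 0.0485). The log2 fold changes of the 11 ran there from 0.45 to 1.17 with a median of 0.84. In the VDR-KD legs 0 of the 11 passed, and their median was 0.11. Tgfbi, a matrix protein named for its induction by TGF-beta, differed by 0.85 ± 0.23 in VDR-OE legs (adjusted p = 0.0738) and 0.46 ± 0.23 in VDR-KD legs (adjusted p = 0.632). Of 20 named amino acid and ATF4 response genes, Inhbe and Gdf15 included, 10 fell and 0 rose in the VDR-OE legs, where 11.9% of all named genes passed, at a median of -1.22. Besides Inhbe, those with the smallest p were Fgf21, a hormone made under nutrient stress (-4.97 ± 0.77, edgeR adjusted p = 0.0171), Cebpg, a transcription factor partner of ATF4 (-0.70 ± 0.11, adjusted p = 0.0171), and Sesn2, a leucine sensor (-1.93 ± 0.32, adjusted p = 0.0209). In legs labelled VDR-KD 0 of the 20 passed, 12 were positive and 8 negative, at a median of 0.051. The control legs of the arms also differed over these lists. In empty-vector against scramble legs 20 of 20 amino acid and ATF4 genes were positive (median 0.78), 11 of 11 TGF-beta response genes were negative (median -0.87) and 10 of 10 antagonists were negative (median -0.68). None of them passed by the edgeR quasi-likelihood test. These are the same empty-vector legs that the VDR-OE legs were compared with, and 69.2% of the named genes tested there had p under 0.05.

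**Figure D4:**
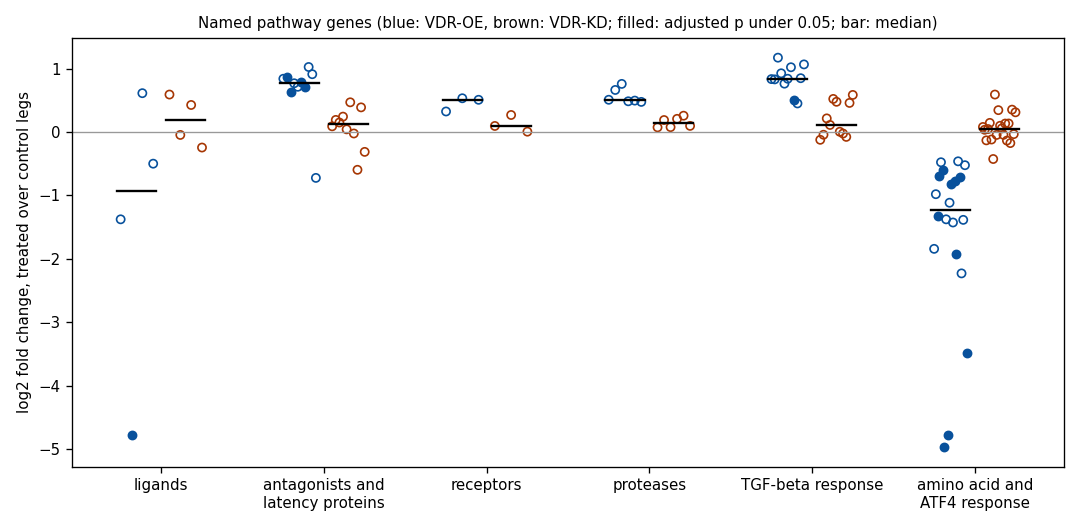
Log2 fold change of treated over control legs (y axis) for the named genes of 6 pathway lists (x axis), blue for VDR-OE and brown for VDR-KD, filled where the edgeR adjusted p was under 0.05, with bars for list medians. The medians of the antagonists are 0.78 and 0.12 and those of the amino acid and ATF4 genes -1.22 and 0.051, for genes that have a symbol because of their change in the VDR-OE legs.

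Likeness of pattern was measured by Spearman's rho of log2 CPM over the 28 muscles, which share their groups, rats and scaling. The 5 genes most like Fst were Adam19, a membrane metalloprotease (0.94), Pea15 (0.91), Scpep1, a serine carboxypeptidase (0.91), Tgfbi (0.90) and Tgfbr2 (0.90). Tgfbi and Tgfbr2, the TGF-beta induced matrix protein and the TGF-beta receptor, thus ranked 4 and 5 among the 15112 genes, after Adam19, Pea15 and Scpep1. Whether this likeness reflects a shared pathway was not tested. Those most like Inhbe were Fgf21 (0.95), Mettl16, an RNA methyltransferase (0.93), Fut1, a fucosyltransferase (0.93), and the aminoacyl-tRNA synthetase genes Eprs (0.91) and Nars (0.91). Fgf21 fell from 16.4 ± 11.1 CPM (SD, n = 7) in VDR-OE control legs to 0.438 ± 0.124 CPM in VDR-OE legs, and it stood at 0.229 CPM in the right leg of rat 423 and at 0.253 CPM in the left leg of rat 424, the muscles of that arm where Inhbe was lowest. Those most like Tgfb1 included Slc29a3, a nucleoside transporter of lysosomes (0.97), Gnai2, an inhibitory G protein alpha subunit (0.97), and LOC308990 (0.97), while 2 of its 5 had no symbol. Between the members themselves rho was 0.72 for Fst and Tgfb1, -0.48 for Fst and Inhbe, and -0.068 for Inhbe and Tgfb1. The rho of 0.72 was not particular to this pair. Tgfb1 ranked 875 among the genes most like Fst, and Fst ranked 2441 among those most like Tgfb1.

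**Figure D5:**
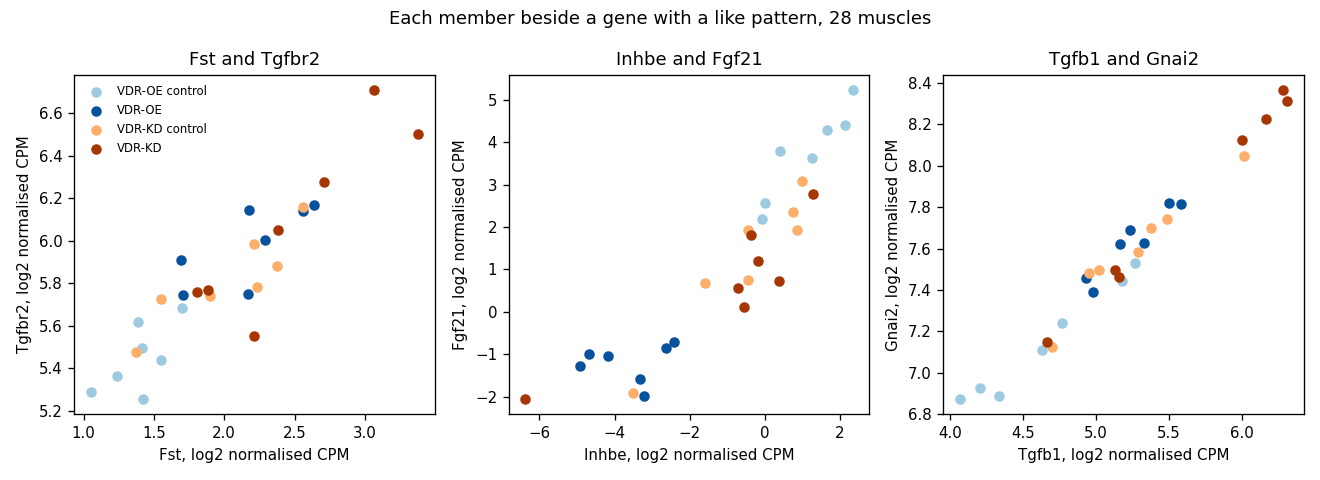
Log2 normalised CPM of each gene (x axis) against a gene of like pattern (y axis) in the 28 muscles coloured by group, Fst with Tgfbr2, Inhbe with Fgf21 and Tgfb1 with Gnai2, at Spearman's rho of 0.90, 0.95 and 0.97. The 7 VDR-OE muscles lie at the lower left for Inhbe and Fgf21 together with 1 muscle from each VDR-KD group.

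Within rats the correlation between Fst and Tgfb1 was weaker than over muscles. Pearson's r of their treated-over-control log2 ratios over 14 rats was 0.48 (permutation p = 0.0782) and Spearman's rho 0.25 (permutation p = 0.383). Without rats 421 and 425, the farthest from the median in Fst, r was 0.0057, so the value rested on those rats. Within arms r was 0.21 in VDR-OE rats and 0.54 in VDR-KD rats (exact permutation p = 0.653 and 0.207, n = 7 each). Of 7 such relations among the 3 genes, those of Inhbe taken within arms only, none passed after adjustment, the smallest adjusted p being 0.431 for r and 0.778 for rho.

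Macrophage and lymphocyte markers with a symbol had higher medians in the treated legs of both arms, as Fst and Tgfb1 had. Fibroblast markers with a symbol had so in the VDR-OE arm. These symbols come from the table chosen on the VDR-OE legs, so the rise there is fixed in large part by that choice. Each of these 5 macrophage, 2 lymphocyte and 6 fibroblast markers had an edgeR p under 0.05 there. Markers without a symbol were not seen. The summed CPM of 5 of 9 macrophage markers with a symbol ran from 128 to 464 in VDR-OE control legs, 328 to 1047 in VDR-OE legs, 307 to 1152 in VDR-KD control legs and 256 to 1747 in legs labelled VDR-KD, with medians of 270.1, 688, 587 and 1141. That of 6 of 8 fibroblast markers ran from 1517 to 5197, 2194 to 8541, 2833 to 8708 and 2567 to 8736, with medians of 2821, 5373, 5161 and 4761, so that in the VDR-KD arm the median was lower in the treated legs. There 3 of the 6 had positive and 3 negative log2 fold changes. The 2 of 9 lymphocyte markers with a symbol, Cd4 and Cd3d, summed to medians of 33.7, 62.3, 58.9 and 134 CPM. Most of that sum was Cd4 in every group, with a mean of 29.9 CPM against 3.01 CPM for Cd3d in VDR-OE control legs. The sum therefore describes mainly Cd4, and which cells held it was not tested. The 1 of 7 satellite cell markers with a symbol, Vcam1, had medians of 9.35, 22.5, 12.9 and 25.2 CPM, and the 1 of 6 hepatocyte markers, Tf, had 52.9, 79.2, 86.2 and 77.4 CPM. No named marker of these lists was at 0 in any muscle, and no symbol was at hand for the endothelial, adipocyte and regenerating fibre lists. The part of these cells in the values of Fst, Inhbe and Tgfb1 was not tested, and in whole muscle fewer cells of a type and less RNA per cell cannot be told apart.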

How the data were processed

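RNA of 28 tibialis anterior muscles was sequenced as 75 bp paired-end reads after TruSeq preparation on an Illumina HiSeq instrument. Per the labels and the study's methods, the authors demultiplexed with bcl2fastq 2.17.1.14, checked reads with FastQC 0.11.5, trimmed them, and aligned and counted them per gene with Rsubread on rat genome 6.0 with Ensembl release 89. Whether counting used strand is not given in the sources used here. The deposited unit is raw read counts per gene. From these, CPM were scaled by TMM, and log2 CPM used a prior count of 0.5. Genes above the CPM worth 10 reads of the median library in 7 or more samples were tested with the quasi-likelihood test of edgeR 4.0.16 (R 4.3.3), with the rat as a block in one fit of 28 samples, and the control legs in a fit of 14 samples without it. P-values were adjusted by Benjamini-Hochberg over all genes, with a threshold of 0.05. DESeq2 1.42.0, the likelihood ratio test, other filters and scalings, no block, the arm alone and leaving out each rat were alternatives.

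The number pairs the legs of one animal. Deviations from group means correlated between the legs of a rat by 0.243 on average in the VDR-OE arm and -0.105 in the VDR-KD arm. Single rats ran from -0.548 to 0.539, and legs of different rats of one arm gave -0.0113 on average. In the VDR-KD arm the legs of a rat were thus on average no more alike than those of different rats. Exact permutation tests were two-sided, by sign flips over 7 rats within an arm and by all splits of 14 samples between arms. No 2 samples of a group agreed within sampling noise. The labels do not give a sequencing batch. Floor values cover counting error only. The SE of a fitted log2 fold change was taken as its absolute size over the square root of the F statistic of the quasi-likelihood test. It therefore also holds the spread between samples. Every sample of the 3 genes was reported. From each list up to 4 passing genes with the smallest p, all passing ligands and receptors, a set of ligands and receptors fixed by name, and the 5 genes of highest Spearman's rho were named; Wfikkn2, Gdf15, Acvrl1, Tgfbr3, Trib3 and Pck2 were added after their values were seen. Members and lists were chosen with earlier results of these data known. Gene symbols came from a supplementary table of the study, for 1998 of 32883 identifiers, and none of its values were used. The human part of the study was not analysed here. The backbone of the VDR plasmid is given differently in the labels (pCAGGS) and the study's methods.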

Additional observations from a re-analysis of the deposited data

Results flagged for a closer look

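The within-rat log2 ratio of Inhbe was lower in the VDR-OE arm than in the VDR-KD arm, by a mean difference of -4.27. The treated leg was lower in 7 of 7 rats against 3 of 7. This result is listed because the exact permutation test over 14 rats gave p = 0.0122. That p was not adjusted over the 3 genes, and Inhbe was chosen with earlier results of these data known. The test over all genes did not call the difference (edgeR adjusted p = 0.469). The smallest p when 1 rat was left out was 0.000583 (without rat 423, mean difference -5.43) and the largest 0.0274 (without rat 424, -3.55). Inhbe in the right leg of rat 423, at 0 reads and a log2 CPM of -6.38 that depends on the prior count, stood apart from the other 6 legs labelled VDR-KD, the next of which was at -0.71 (Dixon's criterion at the 95% level; gap over range 0.739, and 0.580 with the 0 set to the limit of 3 reads). On the linear CPM scale no muscle stood apart in any of the 12 sets of 7, 3 genes in 4 groups, and on the log2 scale only this 1 did. Chance flags about 1 in 20 sets.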

How the results depend on the processing

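Inhbe kept its direction and call in the VDR-OE legs under all 8 alternatives of tool, scaling, filter, block and samples (log2 fold change -4.95 to -4.76, adjusted p 8.03e-08 to 0.0277). Fst kept its direction under the same 8 (0.79 to 0.81) and lost its call with no filter on low counts (0.81, adjusted p = 0.0556). Tgfb1 stayed uncalled in the VDR-OE legs under all 8 (adjusted p 0.0609 to 0.273). Leaving out each rat gave log2 fold changes in the VDR-OE legs of 0.71 to 0.84 for Fst, -5.27 to -4.51 for Inhbe and 0.52 to 0.76 for Tgfb1. In the VDR-KD legs it gave 0.36 to 0.65 for Fst, -0.56 to 0.52 for Inhbe, whose sign turned without rat 423, 426 or 428, and 0.29 to 0.64 for Tgfb1. For the difference between the arms it gave 0.13 to 0.43, -5.30 to -4.21 and -0.027 to 0.33, the last turning sign without rat 423 or 425. The mean within-rat difference behind the exact test, with rats left out after the data were seen, was 0.13 to 0.44 for Fst, -5.43 to -3.55 for Inhbe and -0.012 to 0.35 for Tgfb1, the last turning sign without the same rats. For the control legs it gave -0.76 to -0.58 for Fst, 1.07 to 1.56 for Inhbe and -0.74 to -0.46 for Tgfb1. The difference between the arms in Inhbe passed under DESeq2 (-4.94), the likelihood ratio test (-4.87) and no replicate block (-4.72, adjusted p = 0.0456), and the control-leg difference in Fst passed under both other tests (-0.68 in each).

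The count of genes called in the VDR-OE legs moved from 229 to 1214 (DESeq2), 663 (likelihood ratio test), 124 (no filter), 410 (no replicate block) and 1037 (the arm alone), and leaving out 1 rat moved it to between 0, without rat 421, and 697, without rat 425. DESeq2 called 25 genes in the VDR-KD legs, gave no adjusted p for the 3 genes there, and called 44 in the difference between the arms, where the likelihood ratio test called 18, no replicate block 11, and 3 filters 1 gene each; leaving out 1 rat gave 0 to 1. In the control legs the 4 genes called became 132 (all 28 samples), 1028 (DESeq2), 441 (likelihood ratio test), 12 (other size factors), 12 (filter in at least 2 samples), 7 (no filter) and 17 (filter on the mean CPM), and 0 to 787 when a rat was left out. The block changed no other call of the 3 genes. The order of groups by median CPM without TMM kept 2 of the 4 ranks of Inhbe. Leaving out rats, an alternative added after the data were seen, kept 4 ranks for Fst, 2 to 4 for Inhbe and 2 to 4 for Tgfb1. The cause of these shifts was not tested, and with few reads of Inhbe in VDR-OE legs depth limits the size of its fall.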
